A study of Homo sapiens with 8 samples.

Results

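The transcriptional response of Kasumi-1 cells to cinobufagin was described over 11238 genes, 43.9% of the 25593 gene rows of the deposited table. A gene was a member when its FPKM (fragments scaled to transcript length and library size) reached 1 in at least 2 of the 4 Kasumi-1 libraries. Of the 11447 rows past that filter, 159 short RNAs and 50 rows with a repeated symbol were left out. The 262 members at FPKM of 1 or more in exactly 2 libraries had a median highest value of 1.36 FPKM, against 1.13 for the 352 genes that reached it in 1 library only. Membership did not use the direction or size of the response.

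Kasumi-1 is an acute myeloid leukaemia line of myeloblasts that carries the RUNX1-RUNX1T1 fusion, and it stands for a single patient's leukaemia. It was grown in RPMI-1640 with penicillin-streptomycin and 20% fetal bovine serum, either without drug (0 nM, 2 libraries) or with 100 nM cinobufagin for 24 h (2 libraries). The other 4 libraries of the series came from HL60, a promyelocytic line whose MYC gene is amplified, grown in 10% serum with or without the same dose for the same time. The labels name no vehicle and do not state whether the libraries of a group were grown separately. P-values therefore rest on the spread between libraries alone, and that spread may be technical.

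Cinobufagin is a bufadienolide of toad venom. Like the cardiac glycosides it binds the Na+/K+-ATPase, the pump that exports sodium and imports potassium, and blocking the pump raises sodium and lowers potassium inside the cell. Human cells are sensitive to such compounds, and losses of short-lived mRNAs and proteins, MYC among them, are known effects. The series title names repression of genes of the c-Myc pathway, and MYC is the transcription factor that drives ribosome production, nucleotide synthesis and growth in leukaemic blasts.

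Of 7 markers listed for Kasumi-1 6 were members, and CACNA2D2 stayed at or below 0.135 FPKM. RUNX1T1, the fusion partner, stood at 17.4 and 20.8 FPKM in untreated and 16.2 and 19.2 in treated cells, and at 0 in every HL60 library. CD34 and TRH were also at 0 in HL60, and KIT was below 1 FPKM there. CD33 was higher in untreated HL60 (75.7 and 70.3 FPKM) than in untreated Kasumi-1 (31.8 and 32.0). The 4 markers listed for HL60 (CTSG, ELANE, PRTN3 and AZU1) summed to between 4245 and 4618 FPKM in untreated Kasumi-1 and did not mark HL60 alone. Summed FPKM of the marker lists of T and NK cells (1 of 8 markers a member), B cells (0 of 4), erythroid cells and megakaryocytes (0 of 7), fibroblasts and epithelium (0 of 8) and monocytes (1 of 5) reached at most 2.275 in any Kasumi-1 library. CD3G, MS4A1, HBB, COL1A2 and CD163 were at 0 in all 4. Relative depth, read from the steps of low FPKM values with untreated replicate 1 set to 1, was 1.10 in untreated replicate 2, 0.815 in treated replicate 1 and 1.09 in treated replicate 2. Between 10985 and 11080 members reached 1 FPKM per library. SNORD50A, a short RNA and no member, was at 0 in both replicate 1 libraries and at 45596 and 748781 FPKM in the replicate 2 libraries of Kasumi-1.

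Cinobufagin moved many Kasumi-1 genes, most of them by little. With limma on log2(FPKM + 1) and Benjamini-Hochberg adjustment over 12511 tested genes, 1226 members rose (10.9%) and 1985 fell (17.7%) at an adjusted p under 0.05, 3211 in all (28.6%). Over the 12511 genes of the fit these shares were 10.1% and 16.2%. The median absolute log2 change of the called members was 0.39, and 26 members rose and 26 fell at least 2-fold (0.231% each). The median over all members was −0.04, with the 5th and 95th percentiles at −0.51 and 0.43. FPKM is relative within a library, and in bulk RNA fewer cells that express a gene cannot be told apart from less of its RNA per cell.

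All 3211 called members had both treated libraries on the same side of both untreated ones, as did 26.2% of members upwards and 37.5% downwards whether called or not. The changes within replicate 1 and within replicate 2 correlated with Pearson's r of 0.806 across members, which are not independent. The balance of calls moved with the scaling of the libraries: rises were 38.2% of the calls as deposited, 52.4% after rescaling by the median ratio, which moved the median of all members to 0.01, and 48.0% after quantile normalization. Leaving out any 1 of the 4 libraries left between 615 and 716 rises and between 996 and 1285 falls. Fitting Kasumi-1 alone, with no HL60 library to share the spread, left 378 and 624.

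**Figure D1:**
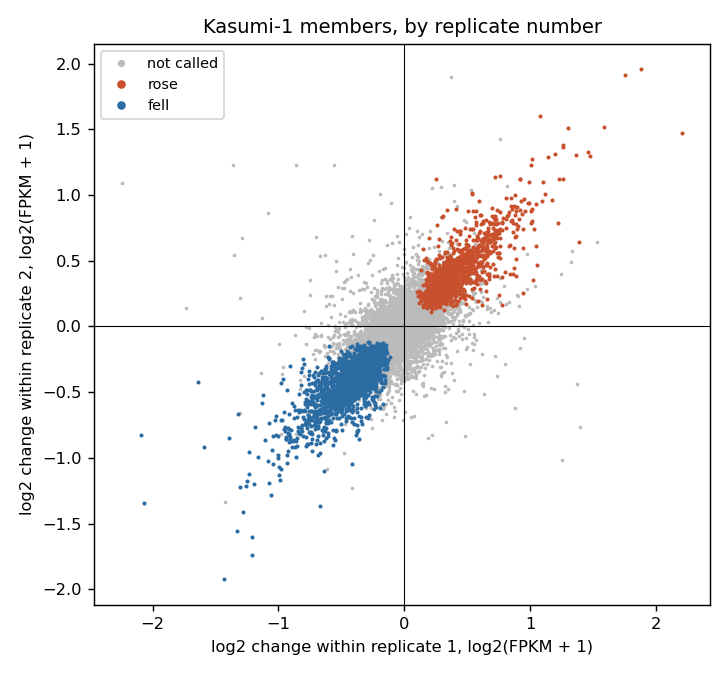
Log2 change on log2(FPKM + 1) of each of the 11238 members, cinobufagin minus untreated, within replicate 1 (horizontal axis) and within replicate 2 (vertical axis). Red points rose and blue points fell at an adjusted p under 0.05; every called member lies in the quadrant where both changes have the same sign, and most called changes are within 1 unit of 0.

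The largest rise was in CD82, a tetraspanin of the cell surface. It stood at 3.18 and 3.45 FPKM in untreated and at 14.4 and 16.3 in treated Kasumi-1 libraries, which is 1.92 on the log2 scale (SE 0.07, limma adjusted p = 0.000275). CRIP1, a small LIM-domain protein, went from 8.48 and 11.4 to 42.9 and 33.4 FPKM (1.84, SE 0.17, limma adjusted p = 0.00184). MFAP4, a protein of extracellular microfibrils, went from 14.7 and 12.6 to 37.7 and 37.9 FPKM (1.41, SE 0.09, limma adjusted p = 0.000927). In these 3 genes both treated libraries lay more than 2-fold above both untreated ones. SAT1, the acetyltransferase that starts polyamine breakdown, rose from 38.5 and 37.0 to 108 and 94.4 FPKM (1.39, SE 0.10). The calcium-binding S100A4 was the most abundant of the 15 largest rises, with 105 and 93.3 FPKM untreated and 272 and 232 treated (1.34, SE 0.10).

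The other leading rises had varied roles. IL8, the neutrophil chemokine, rose from 4.39 and 3.40 to 10.4 and 12.4 FPKM, and C3AR1, the receptor of complement C3a, from 3.47 and 3.43 to 8.88 and 9.80. CLEC4E, a C-type lectin receptor of phagocytes, rose by 1.19 on the log2 scale, and LAPTM5, a lysosomal membrane protein of blood cells, by 1.10. LMNA, the gene of the nuclear lamins A and C, rose from 2.93 and 2.71 to 8.001 and 8.20 FPKM. TSC22D3, also known as GILZ, rose from 5.43 and 4.64 to 12.01 and 12.6 FPKM, and PIWIL4, of the Piwi family, from 2.66 and 2.28 to 7.77 and 7.53. The histone gene HIST1H2BK (1.55), the myeloid membrane gene MYADM (1.18) and TM6SF1 (1.12) complete the 15 largest rises. All 15 kept their call under each of the 13 alternatives.

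The largest fall was in PRG2, the eosinophil major basic protein, which went from 14.7 and 11.9 to 2.73 and 4.09 FPKM (−1.71 on the log2 scale, SE 0.18, limma adjusted p = 0.00258). UCP2, a carrier of the inner mitochondrial membrane, fell from 60.2 and 61.0 to 24.2 and 22.3 FPKM (−1.35, SE 0.05, limma adjusted p = 0.00042). In both genes each treated value lay more than 2-fold below each untreated one. EIF5, which activates GTP hydrolysis during translation initiation, fell from 47.6 and 50.3 to 23.3 and 23.4 FPKM (−1.03, SE 0.06, limma adjusted p = 0.000714). POLR3G, a subunit of RNA polymerase III, fell from 5.21 and 5.82 to 2.12 and 2.11 FPKM. FSD1, GSTO2, a glutathione transferase, and PRRT4 fell by 1.13, 1.05 and 1.05 on the log2 scale. Enzymes of lipid synthesis and metallothioneins were also among the 15 and are given with their groups. C2orf82, with untreated values of 14.1 and 7.56 and treated values of 3.86 and 5.38 FPKM, lost its call without untreated replicate 1 (adjusted p = 0.0928), treated replicate 1 (0.152) or treated replicate 2 (0.064), within a range of 0.018 to 0.183 over all alternatives.

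**Figure D2:**
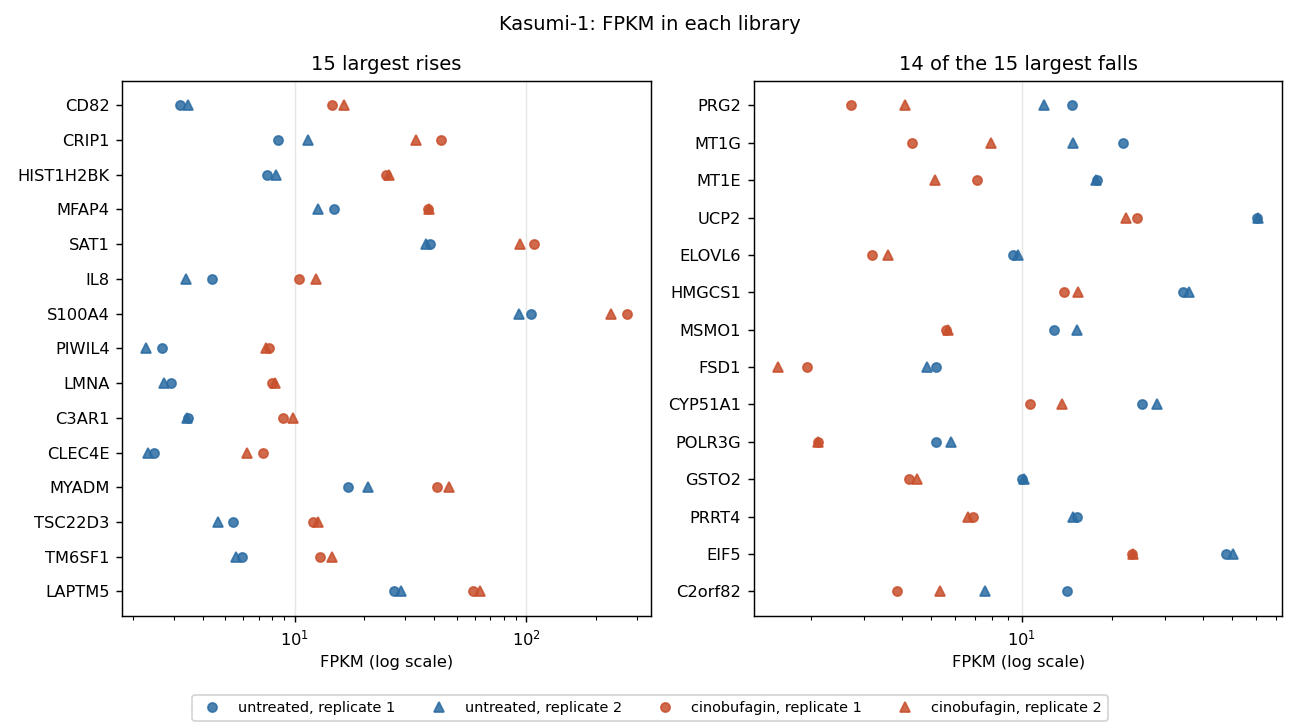
FPKM (log axis) in each of the 4 Kasumi-1 libraries for the 15 largest rises and for 14 of the 15 largest falls, with untreated libraries in blue, cinobufagin in red, circles for replicate 1 and triangles for replicate 2. Blue and red points of a gene do not overlap in any row, as for every called member. CD82 shows the widest gap among the rises and PRG2 among the falls, while C2orf82 shows the widest spread between untreated libraries.

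The calls among falls held 5 metallothioneins, small proteins that bind zinc and copper. The family was not counted as a group, so no share of it that fell is given. Over all members 17.7% fell. MT2A stood at 474 and 364 FPKM in untreated and 276 and 219 in treated libraries, MT1X at 41.9 and 40.0 against 28.0 and 22.8, MT1E at 17.8 and 17.7 against 7.13 and 5.17, and MT1G at 21.8 and 14.8 against 4.33 and 7.91. MT1L fell from 4.76 and 4.10 to 1.30 and 0.731 FPKM. In all 5 genes the treated values lay below the untreated ones, as in every called fall. Their log2 changes ran from −1.46 to −0.68. These near-identical copies share reads, so the split of the family between them is uncertain, and MT1L and the grouping of these genes were picked out after the values were seen. Without untreated replicate 1 the 5 calls were lost, with limma adjusted p of 0.0501 (MT1E), 0.0523 (MT1G), 0.0928 (MT1L), 0.0669 (MT1X) and 0.0778 (MT2A). Without treated replicate 2 the values were 0.0511 for MT1E, 0.0972 for MT1L, 0.059 for MT1X and 0.0824 for MT2A, without untreated replicate 2 they were 0.0505 for MT1E, 0.0712 for MT1L and 0.055 for MT1X, and MT1L was also lost without treated replicate 1 (0.0539). Over all alternatives the adjusted p ran from 0.00139 (MT1X and MT2A) to 0.198 (MT1L).

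MYC itself fell from 308 and 310 to 199 and 202 FPKM in Kasumi-1, or −0.62 on the log2 scale (SE 0.05, limma adjusted p = 0.00124). MYCN, its paralog, fell from 2.26 and 2.498 to 1.39 and 1.57 FPKM (−0.45). MXD3, of the MXD proteins that compete with MYC for their shared partner MAX, rose from 10.2 and 10.3 to 24.2 and 21.0 FPKM (1.07, SE 0.10). MXD1 rose by 0.35 (limma adjusted p = 0.0319), while MXD4 fell from 19.2 and 19.4 to 14.3 and 14.6 FPKM (−0.39, limma adjusted p = 0.0153). Both calls were lost with any 1 library left out (adjusted p from 0.0542 to 0.131 for MXD1 and from 0.055 to 0.069 for MXD4). MAX was at 41.3 and 37.1 against 39.2 and 36.4 FPKM and was not called. Of the 10 members of the MYC network list 2 rose and 3 fell (1 and 2 with Kasumi-1 fitted alone). These shares, 20% and 30% against 10.9% and 17.7% of all members, rest on few genes, and nothing is read from them.

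Genes of ribosome production in the nucleolus, classic targets of MYC, fell as the most uniform of the 37 lists by share called: 56 of 64 nucleolar ribosome biogenesis factors fell (87.5%, against 17.7% of all members), with a median log2 change of −0.41 against −0.04 over all members. UTP20, a component of the particle that processes small-subunit pre-rRNA, fell from 4.72 and 5.10 to 2.1 and 2.33 FPKM (−0.88, SE 0.09). MRTO4, which acts in assembly of the large subunit, fell from 55.0 and 50.7 to 31.3 and 29.9 (−0.77, SE 0.06), and TBL3, of the small-subunit processing particle, from 9.31 and 9.31 to 4.75 and 5.64 (−0.74, SE 0.08). In each of these 3 genes the treated values were below both untreated ones, as in every called fall. Under the median ratio 46 fell, under quantile normalization 51 and with Kasumi-1 fitted alone 36.

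The promoters of these 3 nucleolar genes are shown because MYC-MAX is known to bind the E-box CACGTG. The sequences are from RefSeq (GRCh38.p14, while the deposited values were made on hg19), run from 250 bases before to 50 bases after the gene start on the strand of the gene, and carry CACGTG in capitals. UTP20 lies at chr12:101279855-101280154 (plus strand), MRTO4 at chr1:19251555-19251854 (plus strand) and TBL3 at chr16:1971803-1972102 (plus strand).
UTP20: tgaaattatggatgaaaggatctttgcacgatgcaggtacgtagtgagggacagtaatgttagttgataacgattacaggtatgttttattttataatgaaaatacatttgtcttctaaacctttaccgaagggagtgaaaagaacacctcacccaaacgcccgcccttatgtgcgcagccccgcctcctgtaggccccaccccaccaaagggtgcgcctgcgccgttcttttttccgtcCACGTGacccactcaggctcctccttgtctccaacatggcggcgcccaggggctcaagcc
MRTO4: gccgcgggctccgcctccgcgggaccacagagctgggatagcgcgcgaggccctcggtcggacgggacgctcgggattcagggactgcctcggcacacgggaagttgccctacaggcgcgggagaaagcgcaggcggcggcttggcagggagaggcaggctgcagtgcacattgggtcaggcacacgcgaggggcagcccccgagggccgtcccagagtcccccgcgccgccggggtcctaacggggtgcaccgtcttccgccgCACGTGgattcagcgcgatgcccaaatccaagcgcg
TBL3: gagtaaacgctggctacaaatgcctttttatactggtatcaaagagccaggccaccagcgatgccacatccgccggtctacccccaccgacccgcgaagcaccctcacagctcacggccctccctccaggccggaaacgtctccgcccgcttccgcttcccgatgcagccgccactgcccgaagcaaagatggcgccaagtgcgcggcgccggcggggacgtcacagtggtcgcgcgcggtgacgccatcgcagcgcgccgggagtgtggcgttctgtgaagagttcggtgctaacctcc
CACGTG, which reads the same on both strands, began 10 bases before the start in UTP20 and 14 bases after it in MRTO4, and TBL3 held none in this window. It was in 23 of the 53 nucleolar promoters that had a RefSeq entry (43.4%) and in 7.26% of the 35116 promoters of the table, members or not. Among promoters with an entry it was also in 9 of 32 of the lysosome list, most of whose calls were rises. The counts were 3 of 18 for cholesterol, 4 of 29 for heat shock and 5 of 44 for G2 and mitosis genes. A match is a description of the letters. Promoters matched 77.2% of members, under the 80% needed for such shares over all members, so none are given for the genes that rose or fell.

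Cytosolic ribosomal proteins kept close to the median of all genes. None of 76 was called in Kasumi-1 by limma, and 0 reached an unadjusted p under 0.05. Their log2 changes lay between −0.17 and 0.21 with a median of 0.08, which turned to −0.03 under quantile normalization. In HL60 66 of the same 76 fell, and the change was higher in Kasumi-1, by limma's test of the difference, for 62. Over all members 39% fell in HL60, and the change differed in either direction for 63.3%. The rest of the translation apparatus fell in part. Of 41 translation factors 17 fell and 1 rose (11 to 13 fell with any 1 library left out). The falls were 41.5% of that list and the rise 2.44%, against 17.7% and 10.9% of all members. EIF5B, which joins the ribosomal subunits, fell from 65.5 and 60.2 to 43.2 and 38.4 FPKM. EIF1, which guards start codon choice, was the rise, from 276 and 286 to 464 and 468 FPKM (0.73, SE 0.05). The share of falls among tRNA synthetases was 55%, against the same 17.7%. Among 20 tRNA synthetases 11 fell (7 to 8 with any 1 library left out), with IARS at 76.0 and 83.8 against 48.2 and 54.5 FPKM and FARSB at 28.7 and 28.4 against 19.0 and 19.4.

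Mitochondrial ribosomal proteins fell in 24 of 53 members (median −0.25), 14 to 17 with any 1 library left out and 16 under the median ratio. As a share the 24 falls were 45.3%. MRPL1 fell from 27.0 and 24.3 to 17.1 and 13.6 FPKM. The 56 nuclear genes of the respiratory chain and ATP synthase had 6 falls and 1 rise (median −0.08). These shares, 10.7% and 1.79%, lay below the 17.7% and 10.9% of all members. With any 1 library left out 0 to 3 of those falls were called.

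Enzymes of nucleotide and one-carbon synthesis fell in 23 of 33 members, with a median of −0.28 (13 to 18 with any 1 library left out). As a share the falls were 69.7%, against 17.7% of all members. PFAS, of the purine pathway, fell from 12.2 and 13.6 to 6.32 and 7.09 FPKM (−0.85). PAICS, a later enzyme of the same pathway, fell from 290 and 311 to 165 and 174 (−0.82). RRM2, the small subunit of ribonucleotide reductase, fell from 40.5 and 41.6 to 22.6 and 24.3 FPKM (−0.78, SE 0.06). The treated values of all 3 lay below the untreated ones, as in every called fall. Rises were called for 2 members of the list (6.06%, against 10.9% of all members). TERT, the catalytic subunit of telomerase, fell from 4.73 and 4.54 to 2.04 and 2.12 FPKM (−0.87), and GTF3C6, of the RNA polymerase III factor TFIIIC, from 82.8 and 77.8 to 45.0 and 40.7 (−0.89). These last 2 genes were picked out after their values were seen.

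Cholesterol synthesis and uptake fell in 18 of 24 members (75%, against 17.7% of all members). The median log2 change was −0.48, the lowest median among the 37 lists. With Kasumi-1 fitted alone 14 fell. HMGCS1, an early enzyme of the pathway, fell from 34.3 and 36.1 to 13.8 and 15.4 FPKM (−1.21, SE 0.06, limma adjusted p = 0.000714). SQLE, squalene epoxidase, fell from 66.7 and 68.7 to 32.7 and 34.3 FPKM (−0.99). Later enzymes of sterol synthesis fell likewise. CYP51A1 went from 25.1 and 28.1 to 10.6 and 13.6 FPKM and MSMO1 from 12.8 and 15.3 to 5.604 and 5.69. Treated and untreated values did not overlap in any of these genes, as in every called member.

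Fatty acid synthesis and desaturation fell in 9 of 15 members (60%, against 17.7% of all members), with a median of −0.43. With Kasumi-1 fitted alone 5 fell. ELOVL6, an elongase, fell from 9.34 and 9.71 to 3.18 and 3.60 FPKM (−1.26, SE 0.07). SCD, the stearoyl-CoA desaturase, fell from 63.4 and 74.3 to 31.2 and 36.7, and FASN, fatty acid synthase, from 60.8 and 70.7 to 35.6 and 41.9 (−0.75).

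Heat shock proteins fell in 25 of 32 members (78.1%, against 17.7% of all members), with a median of −0.37. Under the 2 other scalings 24 and 25 fell. With Kasumi-1 fitted alone 19 fell. The list is labelled cytosolic in the figures but also holds the mitochondrial HSPE1. The HSP90 chaperones fell side by side: HSP90AB1 from 1109 and 1108 to 609 and 606 FPKM (−0.87, SE 0.05), and HSP90AA1 from 599 and 605 to 319 and 333 (−0.88, SE 0.05). HSPA8, the constitutive HSP70, fell from 982 and 987 to 588 and 609 FPKM (−0.72), and the mitochondrial chaperonin HSPD1 from 623 and 665 to 379 and 402 (−0.72). These families have pseudogene copies that can take reads. Of 36 proteasome subunits 20 fell (7 to 13 with any 1 library left out, 12 under the median ratio), with PSMD1 of the regulatory particle at 25.9 and 26.7 against 14.7 and 15.8 FPKM. The 27 chaperones and degradation factors of the endoplasmic reticulum went both ways, with 4 rises and 3 falls (2 to 3 and 0 to 1 with any 1 library left out). These shares were 14.8% and 11.1%, against 10.9% and 17.7% of all members, and the proteasome falls were 55.6%. EDEM1, which targets misfolded glycoproteins, rose from 21.8 and 25.2 to 34.8 and 41.2 FPKM, and EDEM2 from 29.9 and 29.3 to 42.6 and 40.0.

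**Figure D3:**
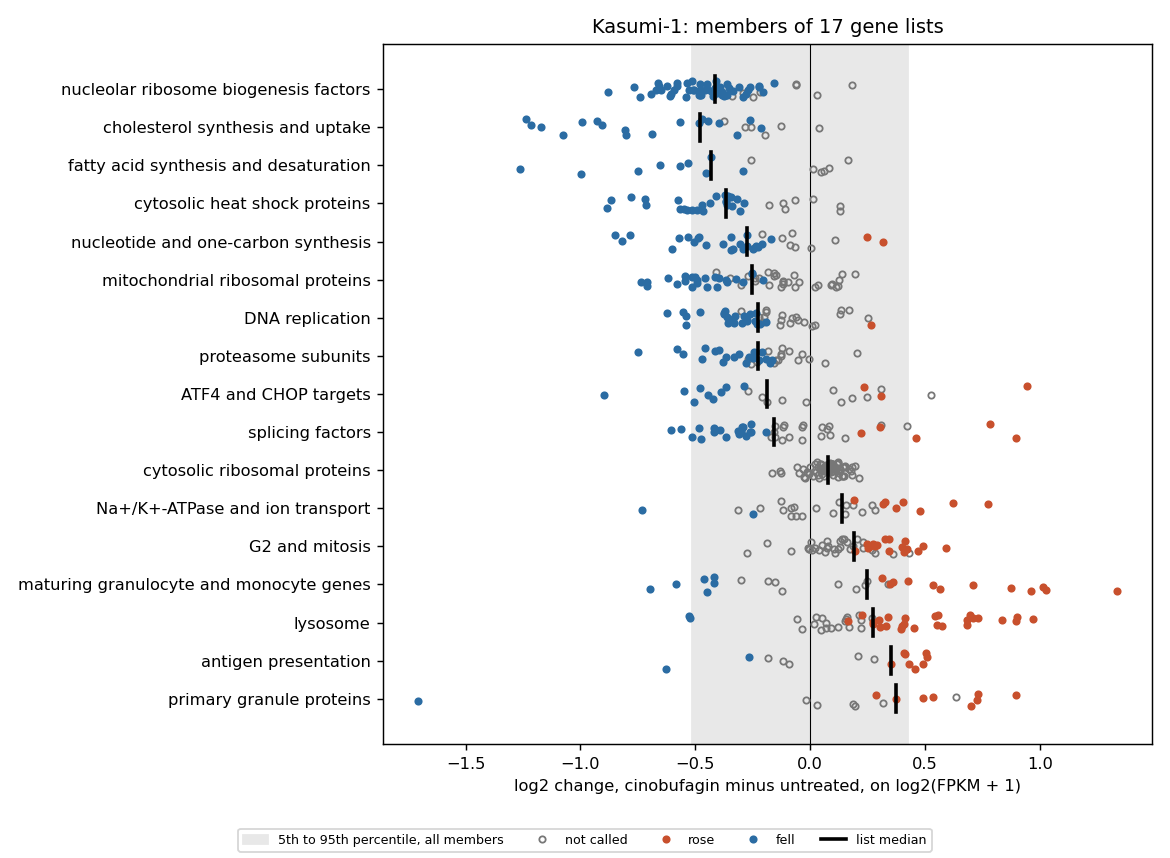
Log2 change on log2(FPKM + 1) of every member of 17 gene lists in Kasumi-1, cinobufagin minus untreated, with red for members that rose, blue for members that fell and open circles for those not called; black bars are list medians and the grey band spans the 5th to 95th percentile of all members (−0.51 to 0.43). Nucleolar and cholesterol genes lie mostly on the left, lysosomal and primary granule genes mostly on the right, and all 76 cytosolic ribosomal proteins are open circles near 0.

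Among 23 targets of the stress factors ATF4 and CHOP 9 fell (39.1%) and 3 rose (13.04%) in Kasumi-1, against 17.7% and 10.9% of all members. With any 1 library left out 6 to 8 fell and 1 to 2 rose, and under the median ratio 9 fell and 5 rose. SLC7A5, a transporter of large amino acids, fell from 20.4 and 23.2 to 10.4 and 12.1 FPKM (−0.90), STC2 from 8.45 and 8.42 to 5.50 and 5.40, and PSAT1, of serine synthesis, from 36.5 and 36.5 to 23.9 and 27.0. PPP1R15A, which recruits the phosphatase that restores translation, rose instead, from 7.96 and 7.37 to 16.0 and 15.3 FPKM (0.94, SE 0.06). In HL60 18 of the 23 rose and 3 fell, against 34.8% and 39% of all members.

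Of 18 targets of the antioxidant factor NRF2 and iron storage genes 8 fell and 1 rose. As shares these were 44.4% and 5.56%, against 17.7% and 10.9% of all members. NQO1, a quinone reductase, fell from 4.65 and 4.90 to 1.84 and 1.63 FPKM (−1.08), PRDX1, a peroxiredoxin, from 549 and 491 to 298 and 269 (−0.87), and SRXN1, which repairs oxidised peroxiredoxin, from 9.98 and 9.88 to 4.79 and 5.37 (−0.85). FTH1, the ferritin heavy chain, which has processed pseudogenes, was the rise, from 123 and 122 to 218 and 219 FPKM (0.83). TXNIP, an inhibitor of thioredoxin and of glucose uptake, stood at 75.2 in both untreated libraries and at 134 and 136 FPKM in treated ones (0.83, SE 0.04). Glycolysis and glucose transport had 8 falls and 2 rises among 22 (2 to 4 falls with any 1 library left out, 3 under the median ratio). At 36.4% the falls lay above the 17.7% of all members, and at 9.09% the rises lay near the 10.9%. The glucose transporter SLC2A3 fell from 5.04 and 5.58 to 2.99 and 3.16 FPKM, and PFKP, a phosphofructokinase, from 72.5 and 73.5 to 48.4 and 50.3. SLC16A3, a lactate exporter, rose from 8.50 and 8.94 to 13.1 and 11.6. Among 13 hypoxia targets 2 rose and 3 fell (2 and 0 with Kasumi-1 fitted alone), with NDRG1 at 16.7 and 16.7 against 29.3 and 29.6 FPKM. Their shares, 15.4% and 23.1%, lay near the 10.9% and 17.7% of all members.

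Lysosomal genes rose in 26 of 46 members (56.5%, against 10.9% of all members) and fell in 2, with a median of 0.27. With Kasumi-1 fitted alone 16 rose and 0 fell. GLA, alpha-galactosidase, rose from 52.4 and 48.9 to 105 and 94.9 FPKM (0.97, SE 0.06), and the protease CTSB from 18.2 and 17.4 to 34.5 and 33.6 (0.90). NPC2, which carries cholesterol out of the lysosome, rose from 100.1 and 90.6 to 188 and 154 FPKM (0.83). LIPA, which frees cholesterol from its esters, and the protease CTSH were the 2 falls. LIPA was at 19.2 and 22.6 against 13.2 and 15.2 FPKM and CTSH at 4.34 and 3.29 against 2.05 and 2.62. Both calls were lost without untreated replicate 1 (adjusted p = 0.0598 and 0.102) and treated replicate 1 (0.146 and 0.116), and that of LIPA also without untreated replicate 2 (0.149) and treated replicate 2 (0.0635), within ranges of 0.00378 to 0.149 for LIPA and 0.0172 to 0.12 for CTSH. Of 28 autophagy genes 7 rose (25.0%, against 10.9% of all members) and 2 fell, and with any 1 library left out 5 to 6 rose and 1 fell. The receptor CALCOCO2 rose from 19.4 and 19.0 to 32.6 and 32.1 FPKM, ATG16L2 from 15.7 and 13.3 to 29.8 and 27.6, and ATG3 fell from 53.2 and 52.1 to 38.1 and 37.4. The other fall, of ATG5 from 10.3 and 10.4 to 9.19 and 8.86 FPKM, was not called with any 1 library left out (adjusted p from 0.0898 to 0.146).

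Primary granules are the first granules made by promyelocytes, and their proteins are hallmarks of myeloid blasts. The list also holds the eosinophil proteins PRG2 and RNASE2. Of its 15 members 8 rose (53.3%), RNASE2 among them, and 1, PRG2, fell (6.67%), and the median was 0.37. Over all members 10.9% rose and 17.7% fell. With Kasumi-1 fitted alone 2 of the list rose and 1 fell. Several granule mRNAs were abundant. MPO, myeloperoxidase, stood at 6013 and 6098 FPKM untreated and 7379 and 7381 treated, the protease PRTN3 at 2262 and 2144 against 3146 and 3048, and ELANE, neutrophil elastase, at 1303 and 1149 against 1666 and 1505. AZU1 stood at 817.5 and 741 against 1327 and 1208 FPKM, and CTSG, cathepsin G, at 236 and 211 against 354 and 295. SRGN, the proteoglycan that packs granule contents, rose from 45.4 and 49.2 to 87.7 and 90.0 FPKM (0.90, SE 0.06, limma adjusted p = 0.000927). The log2 changes were 0.49 for PRTN3 (limma adjusted p = 0.00694), 0.70 for AZU1 (0.0123), 0.53 for CTSG (0.0191), 0.37 for ELANE (0.0226) and 0.29 for MPO (0.0474).

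Several of these calls depended on single libraries. With any 1 library left out between 2 and 7 of the 8 were called. Without untreated replicate 2 the limma adjusted p was 0.0642 for AZU1, 0.0921 for CTSG, 0.0963 for ELANE and 0.13 for MPO, and without treated replicate 1 it was 0.0622, 0.0786, 0.0977 and 0.133. MPO was also lost without untreated replicate 1 (0.152) and treated replicate 2 (0.125), and under quantile normalization (0.254), with a range of 0.0109 to 0.338 over all alternatives. The ranges were 0.00568 to 0.0642 for AZU1, 0.01 to 0.0921 for CTSG and 0.0125 to 0.123 for ELANE. PRTN3 and SRGN kept their call with each library left out. With Kasumi-1 fitted alone the call of PRTN3 was lost (limma adjusted p = 0.0732). MPO, ELANE, PRTN3, AZU1 and CTSG were picked out after their values were seen.

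MPO, PRTN3, ELANE, AZU1 and CTSG fell in HL60, and the difference between the lines was called for each by limma. SRGN rose in HL60 too, from 1497 and 1517 to 1785 and 1877 FPKM (0.28, limma adjusted p = 0.00427). PRTN3 stood at 548 and 531 FPKM in untreated and 9.03 and 10.5 in treated HL60, a difference in log2 change, Kasumi-1 minus HL60, of 6.14 (adjusted p = 1.53e-06). MPO stood at 3285 and 3369 against 245 and 274 FPKM in HL60 (difference 3.96, adjusted p = 2.53e-06). The differences were 4.21 for CTSG, 3.55 for AZU1 and 3.29 for ELANE. Of the 15 primary granule members 13 were higher in their Kasumi-1 change than in their HL60 change by this test, and 1 was lower. Over all members the change differed, in either direction, for 63.3%.

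Genes of maturing granulocytes and monocytes rose in 12 of 27 members and fell in 6 (median 0.25). The rises, 44.4%, lay above the 10.9% of all members, and the falls, 22.2%, lay near the 17.7%. With any 1 library left out 7 to 10 rises and 3 to 6 falls were called. Beside S100A4, ANXA1, an annexin of granulocytes, rose from 1.70 and 1.499 to 4.76 and 3.84 FPKM (1.02, SE 0.09). The related ANXA2 fell from 81.8 and 77.2 to 50.9 and 46.4 FPKM (−0.70, SE 0.07). PTPRC, the leukocyte antigen CD45, rose from 11.3 and 12.1 to 23.3 and 24.2 FPKM (0.96, SE 0.06), and S100P from 6.11 and 5.39 to 10.6 and 10.9. CD33, a lectin of myeloid progenitors, fell from 31.8 and 32.0 to 20.4 and 18.4 FPKM (−0.69, SE 0.07). PTPRC, S100P and CD33 were picked out after their values were seen. CD14 and CD163, which define monocytes and macrophages, stayed at or below 0.0875 FPKM in every Kasumi-1 library.

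The rises held 6 receptor genes that were picked out after their values were seen, and receptor genes were not counted as a group. IL1RAP, the shared subunit of interleukin-1 receptors, rose from 4.76 and 6.21 to 9.65 and 11.4 FPKM, IL13RA1 from 7.60 and 7.70 to 11.5 and 12.2, and IL2RG, the common gamma chain, from 104 and 99.2 to 152 and 146. SUCNR1, a receptor for succinate, rose from 6.44 and 5.57 to 11.6 and 13.5 FPKM. The ATP-gated channel P2RX1 rose from 9.49 and 9.22 to 20.2 and 17.8, and the ADP receptor P2RY13 from 4.03 and 4.10 to 7.27 and 7.76. Treated values were above untreated ones in each of the 6, as in every called rise. Of receptor genes that went the other way, CSF1R, the receptor of macrophage colony-stimulating factor, fell from 2.15 and 1.99 to 1.05 and 1.42 FPKM (−0.46, limma adjusted p = 0.0142), a call lost without untreated replicate 1 (0.0657) within a range of 0.00938 to 0.0772.

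Antigen presentation genes rose in 8 of 15 members and fell in 2 (3 to 7 rises with any 1 library left out), with a median of 0.35. In shares this was 53.3% and 13.3%, against 10.9% and 17.7% of all members. HLA-E rose from 91.1 and 90.1 to 118 and 124 FPKM (0.41, SE 0.05) and HLA-DRA, a class II chain, from 3.61 and 4.02 to 5.94 and 5.55 (0.49). TAP2, of the peptide transporter, fell from 4.50 and 3.94 to 2.40 and 2.35 FPKM (−0.63). Reads of HLA genes depend on the alleles of the line and on near-identical copies.

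Among stem, progenitor and lineage factors 4 of 29 rose and 5 fell (2 to 3 and 3 to 5 with any 1 library left out). At 13.8% and 17.2% the shares lay near the 10.9% and 17.7% of all members, and nothing is read from the list as a whole. SPI1, the PU.1 factor that drives myeloid maturation, rose from 81.5 and 75.2 to 133 and 131 FPKM (0.74, SE 0.05), and LYL1 from 103 and 104 to 146 and 151 (0.52). ID1, an inhibitor of basic helix-loop-helix factors, fell from 11.7 and 14.1 to 5.65 and 6.36 FPKM (−0.98, SE 0.10). The surface marker CD34 fell from 61.2 and 58.5 to 43.3 and 44.3 (−0.44), and GATA2 from 8.53 and 8.03 to 6.43 and 6.05 (−0.36). Of 10 genes linked to RUNX1-RUNX1T1, 1 rose and 2 fell (10% and 20%, also near the shares of all members). TRH, a hormone precursor that marks leukaemias with this fusion, rose from 90.5 and 87.5 to 146 and 138 FPKM (0.67). RUNX1 at 45.4 and 51.1 against 45.9 and 51.9 FPKM and KIT at 146 and 159 against 134 and 145 were not called.

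NF-kB and inflammatory genes rose in 8 of 19 members and fell in 2 (5 to 6 rises with any 1 library left out). The shares of this list were 42.1% and 10.5%, against 10.9% and 17.7% of all members. NFKBIA, the inhibitor that NF-kB induces, rose from 16.6 and 15 to 24.0 and 23.5 FPKM, and the chemokine CCL5 from 37.5 and 34.6 to 56.8 and 50.6. TNFSF10, the death ligand TRAIL, fell from 2.998 and 2.59 to 1.18 and 1.36 FPKM (−0.74). Of 29 immediate early genes 7 rose and 4 fell (24.1% and 13.8%, against 10.9% and 17.7% of all members). KLF10 rose from 1.21 and 1.40 to 3.39 and 4.15 FPKM (1.05), FOS from 1.72 and 1.52 to 2.98 and 3.63, and JUN from 5.91 and 5.94 to 9.93 and 10.4. DUSP6 and DUSP4, phosphatases of MAP kinases, fell, with DUSP6 at 48.5 and 49.7 against 28.1 and 30.8 FPKM (−0.72) and DUSP4 at 2.54 and 2.71 against 1.09 and 0.998 (−0.83). Of the other members of that family on the list, DUSP2 fell (−0.42, limma adjusted p = 0.00501), and DUSP1 (0.16) and DUSP5 (−0.07) were not called. PIM1, a kinase downstream of STAT signalling, fell from 4.61 and 4.77 to 2.49 and 1.93. Of 22 interferon-stimulated genes 3 rose and 5 fell (1 to 4 and 2 to 4 with any 1 library left out). At 13.6% and 22.7% these interferon shares lay near the 10.9% and 17.7% of all members, and nothing is read from that list as a whole. IFIT1 fell from 4.57 and 4.32 to 1.37 and 1.45 FPKM (−1.18, SE 0.06), and IRF7 rose from 3.24 and 3.12 to 6.29 and 6.14 (0.79).

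Of 28 members of the BCL2 family and caspases 3 rose and 4 fell (1 to 2 and 1 to 4 with any 1 library left out). These shares, 10.7% and 14.3%, lay near those of all members, 10.9% and 17.7%. BMF, a BH3-only death protein, rose from 1.21 and 1.62 to 3.53 and 3.38 FPKM (0.89), and BCL2L1, which encodes BCL-XL, fell from 18.6 and 18.3 to 13.1 and 13.4 (−0.45). MCL1 at 35.2 and 41.1 against 38.5 and 42.4 FPKM and BCL2 at 6.86 and 8.09 against 7.50 and 9.55 were not called. Of 17 genes that p53 induces 2 rose and 1 fell, and none of these was called a rise with any 1 library left out. The p53 shares of rises and falls were 11.8% and 5.88%, against the same 10.9% and 17.7%. CDKN1A, the p21 gene, was at most 0.443 FPKM in any Kasumi-1 library and no member.

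Of 44 DNA replication genes 23 fell (52.3%) and 1 rose (2.27%), with a median of −0.23. Over all members 17.7% fell and 10.9% rose. The falls numbered 10 to 17 with any 1 library left out and 7 with Kasumi-1 fitted alone. ORC3, of the origin recognition complex, fell from 11.5 and 11.7 to 7.25 and 7.16 FPKM (−0.62), POLA1, of DNA polymerase alpha, from 10.9 and 11.6 to 7.19 and 7.49 (−0.56), and CHAF1B, a histone chaperone, from 15.3 and 15.1 to 10.2 and 10.1 (−0.54). CCNE2, a cyclin of the entry into S phase, fell from 7.82 and 7.65 to 4.59 and 5.04 FPKM, while CDK2 rose from 24.0 and 22.7 to 33.4 and 31.7. Cyclins, CDK inhibitors and RB genes had 5 falls and 1 rise among 25 (2 to 4 and 1 to 3 with any 1 library left out). At 20% of that list the falls lay near the 17.7% of all members, and at 4% the rises lay below the 10.9%. Of 50 genes of G2 and mitosis 18 rose and 0 fell by limma (29 and 1 at an unadjusted p under 0.05), with a median of 0.19. Rises by limma were 36% of that list, against 10.9% of all members. The rises numbered 27 under the median ratio, 28 under quantile normalization, 7 to 10 with any 1 library left out and 2 with Kasumi-1 fitted alone.

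ANLN, the cytokinesis scaffold anillin, rose from 19.4 and 20.4 to 29.4 and 31.5 FPKM (0.59, SE 0.05, limma adjusted p = 0.00191). NUF2, of the kinetochore, went from 16.8 and 15.1 to 24.3 and 21.5 (0.49, SE 0.09), and AURKB, the Aurora B kinase, from 15.4 and 11.9 to 18.9 and 19.4 (0.47, SE 0.12). The call of NUF2 was lost without untreated replicate 2 (adjusted p = 0.0595) or treated replicate 1 (0.0559), within a range of 0.000961 to 0.0599. That of AURKB was lost without untreated replicate 2 (0.0788), treated replicate 1 (0.0939) or treated replicate 2 (0.109), within 0.0176 to 0.114. Of 11 replication-dependent histone genes 5 rose (45.5%, against 10.9% of all members), and 2 with Kasumi-1 fitted alone. Histone genes of this kind are near-identical copies that poly(A) selection captures in part.

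Promoters of mitotic genes often carry the cell cycle element TTTGAA near the start, and the 3 largest rises of the list are shown for it, a choice made after their values were seen. The sequences are from RefSeq (GRCh38.p14) in the same window, with TTTGAA of either strand in capitals, for ANLN at chr7:36389612-36389911 (plus strand), NUF2 at chr1:163321704-163322003 (plus strand) and AURKB at chr17:8210176-8210475 (minus strand).
ANLN: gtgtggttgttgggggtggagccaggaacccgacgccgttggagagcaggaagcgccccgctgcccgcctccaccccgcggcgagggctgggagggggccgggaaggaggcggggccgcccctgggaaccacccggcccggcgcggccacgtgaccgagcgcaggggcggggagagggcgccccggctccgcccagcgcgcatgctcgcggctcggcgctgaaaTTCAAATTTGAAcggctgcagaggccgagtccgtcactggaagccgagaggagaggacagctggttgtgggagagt
NUF2: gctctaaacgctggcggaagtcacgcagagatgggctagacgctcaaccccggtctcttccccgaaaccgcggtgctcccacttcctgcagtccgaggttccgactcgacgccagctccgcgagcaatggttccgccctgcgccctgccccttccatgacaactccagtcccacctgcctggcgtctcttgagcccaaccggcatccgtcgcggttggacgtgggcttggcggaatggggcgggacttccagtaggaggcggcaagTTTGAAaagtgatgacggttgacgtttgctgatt
AURKB: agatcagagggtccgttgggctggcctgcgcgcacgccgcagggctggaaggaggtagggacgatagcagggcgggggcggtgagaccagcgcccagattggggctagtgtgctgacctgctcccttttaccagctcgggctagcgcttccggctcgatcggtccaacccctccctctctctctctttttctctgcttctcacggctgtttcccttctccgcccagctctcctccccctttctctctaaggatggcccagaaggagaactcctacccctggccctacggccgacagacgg
ANLN held an adjoining pair, on opposite strands, that began 26 and 20 bases before the start, NUF2 held 1 that began 16 bases after it, and AURKB held none in this window. Either strand of TTTGAA was in 31 of the 44 promoters of the list with an entry (70.5%) and in 15.2% of all promoters of the table, members or not. ANLN also held a CACGTG 103 bases before the start, left in lower case.

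Splicing factors fell in 21 of 45 members and rose in 5 (12 to 15 falls with any 1 library left out). The falls, 46.7%, lay above the 17.7% of all members, and the rises, 11.1%, lay near the 10.9%. SRSF7 fell from 75.6 and 72.5 to 50.9 and 48.6 FPKM and TRA2A from 45.5 and 43.1 to 29.4 and 28.1. The splice site reader U2AF2 fell from 91.0 and 86.8 to 63.2 and 60.4. CLK1 and CLK4, kinases that phosphorylate SR proteins, rose, with CLK1 at 66.9 and 55.7 against 124 and 106 FPKM (0.89, SE 0.13) and CLK4 at 6.85 and 6.31 against 11.98 and 12.1 (0.78, SE 0.08). Their relatives CLK2 (−0.04) and CLK3 (0.08) were not called. Of 21 transcription elongation and BET regulators 1 fell, and of 15 snoRNA host genes 2 fell (0 and 1 with Kasumi-1 fitted alone). At 4.76% and 13.3% both shares lay below the 17.7% of all members.

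The list closest to the known target, the Na+/K+-ATPase and ion transport, had 8 rises and 2 falls among 28 (5 to 6 rises with any 1 library left out). In shares of the list this was 28.6% and 7.14%, against 10.9% and 17.7% of all members. ATP1B3, a beta subunit of the pump, rose from 92.2 and 83.9 to 121 and 112 FPKM (0.40, SE 0.07, limma adjusted p = 0.00868). ATP1B1 was below 1 FPKM in each library and no member. SLC6A6, the taurine transporter, rose from 10.2 and 10.3 to 17.4 and 19.0 FPKM (0.77), and the calcium sensor STIM1 from 9.96 and 10.3 to 15.4 and 16.9 (0.62). AKR1B1, aldose reductase, which makes the osmolyte sorbitol, fell from 59.9 and 58.8 to 35.2 and 35.6 FPKM (−0.73).

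Against HL60 at the same dose and time, the Kasumi-1 response was smaller for most genes. Serum differed with the line, so the line and its serum cannot be told apart. Of the same 11238 members 3911 rose (34.8%) and 4379 fell (39%) in HL60, and the change differed between the lines for 7113 (63.3%) by limma's interaction contrast. The absolute log2 change was larger in HL60 for 79.7% of members. MYC fell from 786 and 750 to 30.3 and 29.2 FPKM in HL60, and its change differed by 4.02 on the log2 scale (adjusted p = 1.53e-06). Across members, which are not independent, the changes of the 2 lines correlated with Pearson's r of 0.426 and Spearman's rho of 0.426.

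The lines shared 787 rises, 64.2% of those of Kasumi-1 and 20.1% of those of HL60, and 1313 falls, 66.2% and 30.0%. Another 244 members rose in Kasumi-1 and fell in HL60 with a called difference (2.17%), and 250 did the reverse (2.22%). Some genes fell by similar amounts in both. HSP90AA1 fell by 0.88 in Kasumi-1 and by 0.84 in HL60 (difference −0.05, limma adjusted p = 0.591), POLR3G by 1.06 and 1.04 (difference −0.02, adjusted p = 0.909) and EIF5B by 0.61 and 0.65 (difference 0.04, adjusted p = 0.732). SPI1 rose by 0.74 in both (difference 0.01, adjusted p = 0.941). These p-values do not show that the changes are equal.

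A called Kasumi-1 change exceeded that of HL60 in absolute size, with a called difference, for 574 members. CD82 rose by 1.92 in Kasumi-1 and 0.66 in HL60 (difference 1.26, limma adjusted p = 7.88e-05). PIWIL4 and MFAP4 rose in Kasumi-1 and fell in HL60, by 0.26 and 0.57 (differences 1.58 and 1.97). EIF5 fell by 1.03 in Kasumi-1 against a log2 change of 0.03 in HL60 (difference −1.07, adjusted p = 7.29e-05), RRM2 fell against a rise of 0.30 (difference −1.08, adjusted p = 8.19e-05), and ELOVL6 fell by 1.26 against 0.30 (difference −0.97, adjusted p = 0.000309). ID1 fell against a change of 0.09 that was not called (difference −1.07). P2RX1 rose by 0.94 against −0.01 (difference 0.96, adjusted p = 0.00167).

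**Figure D4:**
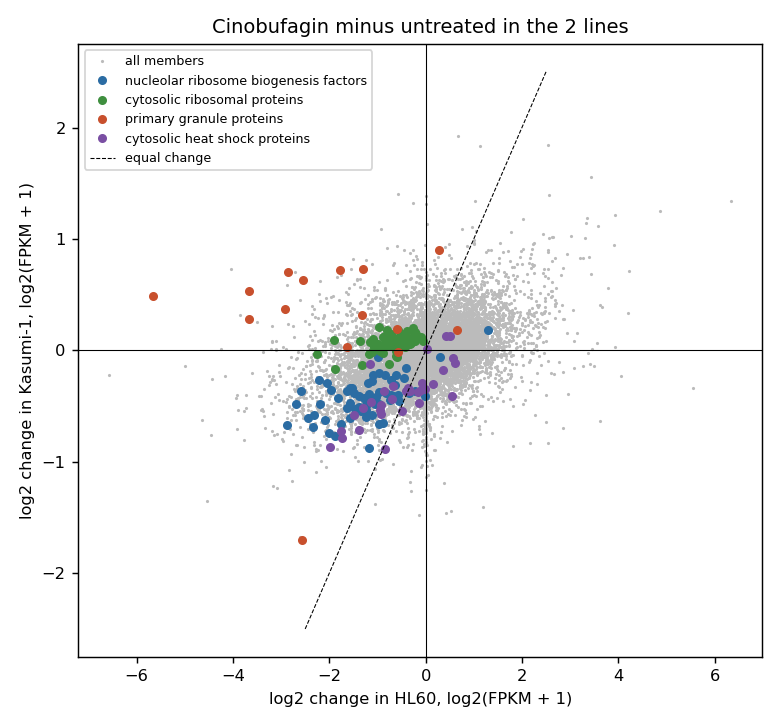
Log2 change on log2(FPKM + 1), cinobufagin minus untreated, of the 11238 members in HL60 (horizontal axis) and Kasumi-1 (vertical axis, on a finer scale), with 4 lists in colour and a dashed line of equal change. Nucleolar factors lie mostly at the lower left in both lines, cytosolic ribosomal proteins fell in HL60 and stayed near 0 in Kasumi-1, and most primary granule genes lie at the upper left.

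Called members were spread over all levels. In the lowest quintile of mean FPKM (0.587 to 3.36) 22.02% of members were called, and in the highest quintile (31.6 to 8658) 38.6%, with median absolute log2 changes of 0.44 and 0.36. Untreated levels had medians of 12.7 FPKM for members that rose, 15.2 for those that fell and 9.27 for those not called. Gene spans in RefSeq, found for 94.3% of members, had medians of 26.0 kb for rises, 25.8 for falls and 29.9 for members not called. Of 10260 members matched as protein-coding 1137 rose and 1883 fell, and of 139 long noncoding RNAs 15 and 17. Of the 262 members just inside the filter, 59 reached 1 FPKM in both treated libraries alone and 110 in both untreated libraries alone.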

How the data were processed

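Per the labels' protocols, an RNeasy kit gave the RNA and a TruSeq Stranded mRNA kit the libraries. The authors deposited 1 table of FPKM values for 8 libraries, made on hg19 with Cufflinks 2.2.1, HISAT2 2.1.0 and bcl2fastq 2.20.0 per the submitters' processing notes. No source used here gives the annotation, strand setting or read totals. No count model was therefore fitted, and overlapping genes and near-identical copies are uncertain. Log2(FPKM + 1) was fitted with limma 3.58.1 (R 4.3.3, intensity trend) to all 4 groups, with 4 residual degrees of freedom, over 12511 genes at FPKM of at least 1 in at least 2 libraries. P-values were adjusted by Benjamini-Hochberg, and a call is an adjusted p under 0.05. The pseudocount understates changes of low genes. An exact permutation of 2 against 2 libraries cannot go below a two-sided p of 0.333, so none was used. The fit was first tested on simulated data.

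The members, the 37 lists and the tests were chosen with earlier results of these data known. Named genes are the 15 members per direction with the largest called change at a mean of at least 5 FPKM. To these come up to 3 called members per direction of each list. Up to 8 per direction were called in opposite directions in the lines with a called difference, ranked by the smaller absolute change. A fixed set holds RUNX1, RUNX1T1, KIT, CD34, MYC, MAX, MXD1, ATP1B3, ATP1B1, BCL2, MCL1 and CDKN1A. SQLE, HSPA8, HSPD1, TXNIP, NPC2, HLA-E and the other genes so marked were picked out after their values were seen. Some genes that the rule names are left out of the text. There were 13 alternatives of pseudocount, filter, scaling, model and libraries.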

Additional observations from a re-analysis of the deposited data

Results flagged for a closer look

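The genes given here were picked for calls in opposite directions in the 2 lines and a called difference between the changes by limma. That difference is therefore part of the choice and no further support. They are the 8 per direction ranked highest by the smaller of the 2 absolute changes. The choice was among 244 members that rose in Kasumi-1 and 250 that fell. Values are the log2 change in Kasumi-1 minus that in HL60. Genes that rose in Kasumi-1 and fell in HL60 were DYSFIP1 (4.78), RNASE2, an eosinophil-type ribonuclease (2.51), C16orf93 (2.33), RAB37, a small GTPase (2.26), LOC100506662 (2.04), CFD, the complement protease factor D (2.03), RNASET2, a lysosomal ribonuclease (1.89), and TMEM173, the innate immune adaptor STING (1.72). TMEM173 stood at 30.9 and 30.9 FPKM in untreated and 61.0 and 57.7 in treated Kasumi-1, and at 14.4 and 13.9 against 7.67 and 7.74 in HL60.

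Genes that fell in Kasumi-1 and rose in HL60 were the annexin ANXA2 (−3.55), the MAP kinase phosphatase DUSP4 (−3.37), the kinase PIM1 (−2.99), the medium-chain fatty acid receptor GPR84 (−2.67), CMTM1 (−1.82) and the metallothioneins MT1E (−2.59), MT2A (−1.89) and MT1X (−1.79). GPR84 stood at 1.55 and 1.17 FPKM in untreated and 0.163 and 0.449 in treated Kasumi-1, so it passed the filter at 1 FPKM only through the untreated libraries, which favours a fall. ANXA2 stood at 81.8 and 77.2 FPKM in untreated and 50.9 and 46.4 in treated Kasumi-1, and at 0.683 and 0.564 against 11.1 and 10.4 in HL60.

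Without untreated replicate 2 of Kasumi-1 the call within that line was lost for CFD (limma adjusted p = 0.0827, range over alternatives 0.00189 to 0.0979), RNASE2 (0.0752, range 0.00867 to 0.105), C16orf93 (0.103, range 0.00567 to 0.111) and LOC100506662 (0.0827, range 0.00298 to 0.0982). Without treated replicate 1 it was lost for the same 4 (0.0979, 0.105, 0.0722 and 0.0982) and for GPR84 (0.0583, range 0.00602 to 0.0633), which was also lost without untreated replicate 1 (0.0633). RNASE2 was lost without treated replicate 2 too (0.0527). The metallothionein calls without single libraries are given with those genes.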

How the results depend on the processing

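With any 1 Kasumi-1 library left out, limma called 615 to 716 rises, 996 to 1285 falls, 21 to 34 rises and 25 to 40 falls of at least 2-fold, and 6467 to 6853 differences from HL60. With Kasumi-1 fitted alone, which leaves fewer samples to estimate the spread, 378 rose and 624 fell. With a pseudocount of 0.1, which expands low values, 58 rose and 88 fell at least 2-fold. Quantile normalization gave 40 rises of at least 2-fold, and a filter at FPKM of at least 5 left 16 falls of that size among fewer genes. All other settings kept these counts within 1.5 times. Of 219 named members 130 kept their call under every alternative that tested them, and 27 of the 30 largest changes did, while 77 lost it with Kasumi-1 fitted alone. The genes whose sign turned were not called to begin with: MAX (0.01 under the median ratio, and −0.13 to 0.02 with any 1 library left out), MCL1 (−0.02 to 0.19), RUNX1 (−0.07 to 0.11) and RUNX1T1 (−0.23 to 0.02). The cause was not tested.

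The labels number the libraries 1 and 2 in each group without saying what a number shares. Deviations from the group means correlated between untreated and treated Kasumi-1 at 0.474. Between Kasumi-1 and HL60 groups the correlations ran from 0.282 to 0.404, and within HL60 it was 0.313. SNORD50A was also at 0 in replicate 1 and at 735056 and 581683 FPKM in replicate 2 of untreated and treated HL60. The numbers thus share something across the series, which the main fit does not model and whose source was not tested. With the replicate number as a block 1802 rose, 2831 fell, 26 rose and 26 fell at least 2-fold and 7943 differed from HL60, and 1 named gene changed its call. Read depth is unknown, so no counting interval was set.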
